A study of Lotus japonicus with 14 samples.

Results

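Root nodules of the Lotus japonicus mutant apn1 that had formed with the rhizobial strain TONO were compared with apn1 nodules that had formed with the strain MAFF303099. The comparison rests on 6 of the 14 RNA libraries of the series, 3 with each strain, taken at 5, 7 and 10 days after inoculation (dai) and paired by day. The libraries were chosen by their sample labels and not by any measured value. The ages of 5 and 7 dai were treated together and apart from 10 dai.

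All plants of the comparison carried the apn1 mutation, which the series labels Fix-, and all were inoculated with Mesorhizobium loti in a medium without nitrogen. The apn1 uninoculated root (1 library) and the 6 nodule libraries of the wild type accession MG20, 3 with each strain at the same days, were used as references. Every condition was 1 library. The labels do not say how many plants or nodules went into a library, and the mutation cannot be told apart from other differences between the 2 plant lines. Nodules were cut from the roots, so a library holds all cells of the nodule.

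In the nodule symbiosis of legumes, rhizobia enter a root primordium and are taken up into plant cells, where they become nitrogen-fixing bacteroids. The plant switches from genes of cell division and infection to genes of the infected cell, such as leghemoglobins, transporters and nitrogen assimilation enzymes, as the nodule matures. APN1 (ASPARTIC PEPTIDASE NODULE-INDUCED 1) is an aspartic peptidase made in nodules, and published work describes nodules of apn1 mutants as ineffective with TONO and effective with MAFF303099. Whether the nodules sampled here fixed nitrogen was not measured in the files.

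The 6 libraries held 33981124 to 58395305 counts on 38476 gene models, and 35032 to 36216 gene models had at least 1 count in each. The strains were of similar depth on each day, with 51189011 counts for MAFF303099 and 58395305 for TONO at 5 dai, 54403927 and 54067684 at 7 dai, and 35130845 and 33981124 at 10 dai. The 10 most abundant gene models took 4.80% to 4.93% of the counts with TONO and 5.30% to 6.69% with MAFF303099. No identifier could be matched to a gene name, so the leghemoglobins and other nodule and root markers could not be looked up, and gene models are given by identifier only. Reads may be shared between gene models that overlap, lie antisense or are near copies of each other.

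In young apn1 nodules no gene model could be called different between the strains. At 5 and 7 dai, 0 of 32549 tested gene models passed (0% called; edgeR's quasi-likelihood test, Benjamini-Hochberg adjusted p under 0.05). At an unadjusted p under 0.05 there were 2463, the smallest adjusted p was 0.100, and limma passed 0 and DESeq2 159. The p-values measure only the spread that the model leaves between single libraries, since no condition has a replicate. Without the apn1 TONO library of 5 dai, 1 gene model passed.

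Taken day by day, 1608 gene models (4.94% of those tested) stood at least 2-fold apart at 5 dai, 685 higher (2.1%) and 923 lower (2.84%) with TONO. At 7 dai there were 1537 (4.72%), 753 higher (2.31%) and 784 lower (2.41%). Of the gene models at least 2-fold higher with TONO, 116 were so on both days, which is 16.9% of the list of 5 dai and 15.4% of that of 7 dai. The lower lists shared 115, or 12.5% and 14.7%. The differences of both days had a Pearson correlation of 0.125 across all 32549 gene models and of 0.306 across the 15257 with a mean level of at least 3 on the log2 CPM scale (log2 of counts scaled to a common library total), as a description across genes that are not independent. Most of the 2-fold differences of 5 dai were thus not seen at 7 dai.

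The gene models with the smallest p of the young nodules had the following values, none of which passed the test. The gene model chr1.CM0104.3070.r2.a had 246 and 76 counts with MAFF303099 at 5 and 7 dai and 1068 and 422 with TONO, against 6748 in the apn1 root. It stood 3.81-fold and 5.59-fold higher with TONO in CPM (fitted log2 difference 2.14, SE 0.18, edgeR adjusted p = 0.100). At 10 dai its counts were 179 and 220, so that the strains were then close. LjSGA_030276.1, also more abundant in the root than in any apn1 nodule library, had 2125 and 1932 counts with MAFF303099 and 8036 and 5166 with TONO (log2 difference 1.53, SE 0.18, edgeR adjusted p = 0.263). Its order was the other way at 10 dai, with 3892 and 2655 counts.

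In the lower direction, chr3.CM0091.770.r2.d had 7701 and 26353 counts with MAFF303099 and 3864 and 13143 with TONO at 5 and 7 dai (log2 difference −1.12, SE 0.13, edgeR adjusted p = 0.263). LjSGA_061543.0.2 had 3818 and 7148 counts with MAFF303099 and 2001 and 3715 with TONO (log2 difference −1.06, SE 0.13, edgeR adjusted p = 0.263). Both were most abundant at 7 dai with either strain. At 10 dai both stood higher with TONO, chr3.CM0091.770.r2.d at 4677 against 2155 counts and LjSGA_061543.0.2 at 1368 against 753.

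At 10 dai apn1 nodules of the strains differed. Between them 1234 gene models differed (3.79% of 32549; edgeR, adjusted p under 0.05), 641 higher (1.97%) and 593 lower (1.82%) with TONO, and 523 and 488 of them were fitted at least 2-fold apart. Counted without a test, 4659 gene models (14.3%) stood at least 2-fold apart, 2745 higher (8.43%) and 1914 lower (5.88%) with TONO. In wild type the number was 3066 at 5 dai (9.42%; 3.6% higher and 5.82% lower with TONO), 2583 at 7 dai (7.94%; 3.15% and 4.79%) and 4015 at 10 dai (12.3%; 5.26% and 7.08%). Each strain had 1 library at this age, so the test takes its spread from the libraries of 5 and 7 dai and assumes that the lone 10 dai libraries vary like them. The number of calls was 275 without the apn1 MAFF303099 library of 5 dai and 272 without that of 7 dai. In whole nodules, fewer cells of a type and less RNA per cell cannot be told apart.

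**Figure D1:**
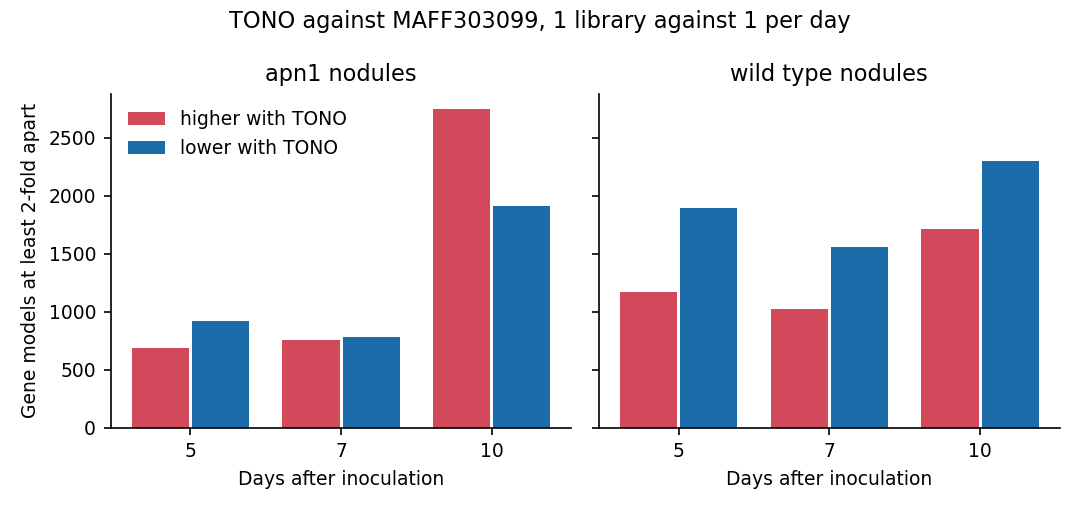
Number of gene models (of 32549 tested) at least 2-fold higher or lower with TONO than with MAFF303099, by days after inoculation, in apn1 and in wild type nodules; each pair of bars compares 1 library with 1 library. In apn1 the sum of both bars is 1608 at 5 dai, 1537 at 7 dai and 4659 at 10 dai, and in wild type it is 3066, 2583 and 4015.

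The 593 gene models that were lower with TONO are mostly ones that wild type nodules raise with age. With both strains in wild type, 441 of them (74.4%) stood 2-fold or more above their 5 dai level at 10 dai, against 8.12% of all gene models tested, and 5 (0.843%) stood below it by as much. Their median level in apn1 with MAFF303099 was 3.84, 4.58 and 5.95 log2 CPM at 5, 7 and 10 dai, and in the wild type libraries of 10 dai it was 5.99 with MAFF303099 and 6.17 with TONO. With TONO in apn1 it was 3.94, 4.62 and 4.52. The strains were thus alike in this median until 7 dai, and the level with TONO at 10 dai was near that of 7 dai. These gene models held 11.3% of the counts with MAFF303099 at 10 dai and 4.36% with TONO, and 5.27% and 4.65% at 7 dai.

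The 641 gene models that were higher with TONO show the reverse with age in 268 cases. These (41.8%) stood 2-fold or more below their 5 dai level at 10 dai in wild type with both strains, against 10.2% of all tested, and 10 (1.56%) stood above it by as much. Their median level in apn1 was 4.44, 4.19 and 3.07 log2 CPM with MAFF303099 and 4.35, 4.18 and 4.47 with TONO at 5, 7 and 10 dai. The apn1 root stood at 4.01, and the wild type libraries of 10 dai at 3.12 and 3.25. Their share of the counts at 10 dai was 1.50% with MAFF303099 and 3.87% with TONO. The levels of 10 dai chose both sets, and the libraries of 5 and 7 dai of both plant lines set the spread of that test, so all these levels are a description.

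**Figure D2:**
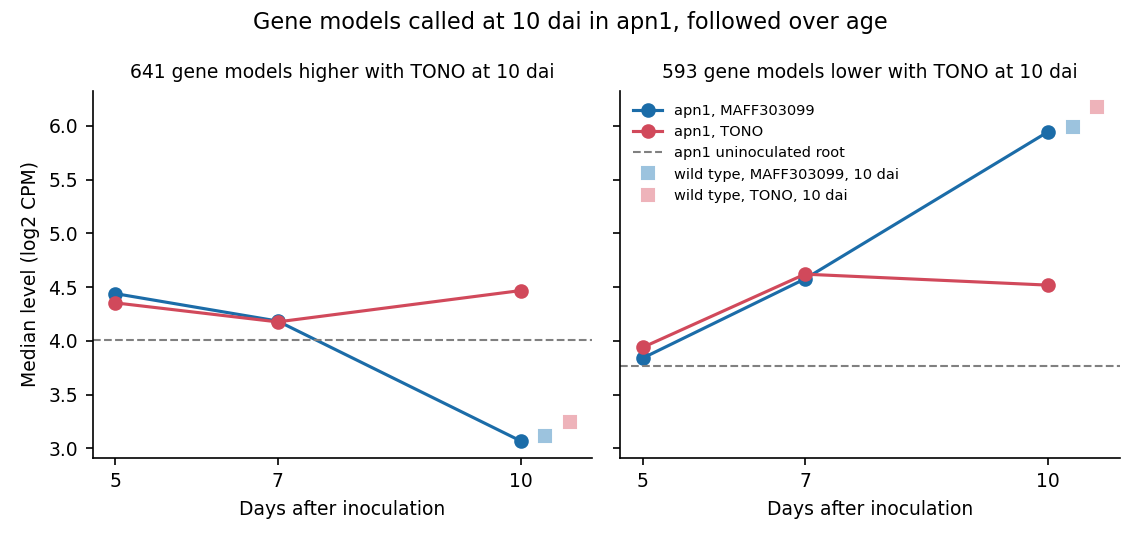
Median level (log2 CPM) by days after inoculation of the gene models called higher (641) and lower (593) with TONO at 10 dai in apn1, in the 6 apn1 nodule libraries (lines), the apn1 uninoculated root (dashed) and both wild type libraries of 10 dai (squares, drawn beside day 10). In the right panel the TONO line is level from 7 dai (4.62) to 10 dai (4.52) while the MAFF303099 line reaches 5.95; in the left panel the MAFF303099 line drops to 3.07 and the TONO line stands at 4.47.

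From 7 to 10 dai the apn1 libraries with TONO moved less than those with MAFF303099, with 1 library for each age and strain. Of all gene models tested, 2321 went up and 4330 went down by 2-fold or more between these libraries with MAFF303099, and 1730 and 2518 with TONO. In wild type the order was the other way, with 2639 up and 4213 down for MAFF303099 and 3522 and 4939 for TONO. Among the called gene models, the apn1 TONO levels of 7 and 10 dai were within 2-fold of each other for 512 of the 593 lower (86.3%). They were so for 455 of the 641 higher (71.0%), against 86.9% of all gene models tested. Neither called set was thus above the share of all gene models. Across the 15257 more abundant gene models, the root mean square log2 distance of the TONO library of 10 dai was 0.533 to TONO at 7 dai, 0.561 to MAFF303099 at 10 dai and 0.751 and 0.734 to the wild type libraries of 10 dai with MAFF303099 and TONO. For the MAFF303099 library of 10 dai these distances were 0.776 to MAFF303099 at 7 dai and 0.487 and 0.479 to both wild type libraries of 10 dai. The nearest library to apn1 with TONO at 10 dai was therefore a 7 dai library, and the nearest to apn1 with MAFF303099 at 10 dai was a wild type library of the same age.

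Gene lists drawn from the wild type libraries alone, which overlap each other, were followed in apn1. The late rising list holds the 887 gene models whose wild type level at 10 dai was 4-fold or more that at 5 dai with each strain. Measured from the apn1 root, its median was 0.03, 2.08 and 3.05 on the log2 scale with MAFF303099 and −0.09, 1.78 and 2.15 with TONO at 5, 7 and 10 dai. It held 1.89%, 10.4% and 17.9% of the counts with MAFF303099, and 1.61%, 7.66% and 9.35% with TONO. The share of the wild type libraries at 10 dai was 19.4% and 20.7%, but high levels in these libraries chose the list. Between the apn1 libraries, which had no part in that choice, the share at 10 dai was lower with TONO.

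The median TONO minus MAFF303099 difference of the late rising list in apn1 was −0.16 at 5 dai, −0.29 at 7 dai and −0.95 at 10 dai. In wild type it was −0.27, −0.26 and 0.24. At 10 dai 430 of the 887 (48.5%) were at least 2-fold lower with TONO in apn1 and 28 (3.16%) at least 2-fold higher, against 5.88% and 8.43% of all gene models tested. By the test 226 were lower and 4 higher (25.5% and 0.451%, against 1.82% and 1.97%), and the list made up 38.1% of all calls lower with TONO. Without the apn1 MAFF303099 library of 5 or of 7 dai the test called 93 and 90 of the list lower. With a list made at 2-fold the median at 10 dai was −0.60.

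The 2 members of this list most abundant in wild type nodules had few counts in the root. In apn1 chr5.CM0089.1200.r2.m had 31592, 376729 and 360783 counts with MAFF303099 and 15294, 210903 and 163661 with TONO, against 40 in the root. It was lower with TONO on each of the 3 days and passed the test at 10 dai (log2 difference −1.25, SE 0.25, edgeR adjusted p = 0.0384). The adjusted p was 0.0954 and 0.0932 without the apn1 MAFF303099 library of 5 or 7 dai, 0.0524 without apn1 with TONO at 5 dai and 0.0541 without wild type with MAFF303099 at 5 dai. In the additive model with 1 further term for apn1 with TONO at 10 dai it was 0.108 (log2 difference −1.74). The strain difference of chr5.CM0089.1200.r2.m in apn1 was little other at 10 dai than at 5 and 7 dai (log2 change −0.18). In wild type this gene model also had fewer counts with TONO at 5 and 7 dai, 13901 and 178679 against 31721 and 361669. At 10 dai wild type had 492923 with TONO and 389296 with MAFF303099. For chr5.CM0062.80.r2.m there were 25965, 502578 and 452146 counts with MAFF303099 and 6361, 346343 and 222758 with TONO in apn1, against 20 in the root. Its strain difference at 10 dai was of like size but did not pass (log2 difference −1.13, SE 0.69, edgeR adjusted p = 0.409). Both also belong to the early rising list below.

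The late falling list, 1119 gene models whose wild type level at 5 dai was 4-fold or more that at 10 dai with each strain, stood higher with TONO in apn1 at 10 dai. Its median strain difference was 0.05, 0.10 and 0.71 at 5, 7 and 10 dai in apn1, and 0.12, 0.24 and −0.15 in wild type. At 10 dai 410 (36.6%) were at least 2-fold higher with TONO and 52 (4.65%) at least 2-fold lower, against 8.43% and 5.88% of all tested. Of all gene models tested 1.97% were called higher and 1.82% lower. The test called 128 higher and 2 lower (11.4% and 0.179%), and 29 and 30 higher without the apn1 MAFF303099 library of 5 or of 7 dai. Measured from the apn1 root the median had come down from 1.43 to 0.11 and −1.36 with MAFF303099 and from 1.50 to 0.23 and −0.70 with TONO. The list thus went down with both strains, and less far with TONO.

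Its most abundant members did not pass the test. Over 5, 7 and 10 dai chr4.CM0432.2470.r2.a had 325008, 67954 and 6036 counts with MAFF303099 and 421941, 99387 and 13793 with TONO (log2 difference 1.09 at 10 dai, SE 0.29, edgeR adjusted p = 0.0851). The values of chr5.CM0096.20.r2.m were 97702, 88120 and 7956 with MAFF303099 and 83246, 104920 and 23839 with TONO (log2 difference 1.48, SE 0.36, edgeR adjusted p = 0.0651). Both had fewer counts at 10 dai than on the earlier days with either strain.

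In the 7 dai peak list the median order of the strains was not the same at all ages. The list holds 269 gene models that in wild type stood at least 2-fold higher at 7 dai than at both 5 and 10 dai with both strains. In apn1 its median strain difference was −0.61 at 5 dai and −0.44 at 7 dai, and 0.68 at 10 dai. At 5 dai 3 of the 269 were at least 2-fold higher and 71 lower with TONO, where 2.1% and 2.84% of all tested were. At 10 dai 83 were higher and 7 lower (30.9% and 2.60%, against 8.43% and 5.88% of all tested). At 10 dai edgeR called 14 higher and 0 lower (5.2% and 0%, against 1.97% and 1.82% of all), and DESeq2 35 and 2. The number called higher was 1 without the apn1 MAFF303099 library of 5 or of 7 dai, and 30 and 29 without wild type with TONO at 5 or 7 dai. From the apn1 root the median ran 0.74, 2.29 and 0.40 with MAFF303099 and 0.22, 1.86 and 1.03 with TONO. Between 7 and 10 dai 229 of the 269 went down by 2-fold or more with MAFF303099 in apn1 and 113 with TONO. These are 85.1% and 42%, against 13.3% and 7.74% of all gene models tested.

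Its most abundant members did not pass the test. In apn1 chr1.CM0125.390.r2.m had 81250, 226866 and 37902 counts with MAFF303099 and 66713, 185126 and 24374 with TONO (log2 difference at 10 dai −0.74, SE 0.28, edgeR adjusted p = 0.191). For chr3.CM0005.600.r2.m there were 36465, 128069 and 4464 counts with MAFF303099 and 18969, 106427 and 6884 with TONO (log2 difference at 10 dai 0.52, SE 0.50, edgeR adjusted p = 0.619). Both peaked at 7 dai with either strain, and only the second stood higher with TONO at 10 dai, as the list's median did.

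The early rising list, 474 gene models whose wild type level at 7 dai was 4-fold or more that at 5 dai with each strain, stood lower with TONO at every age in apn1. The median strain difference was −0.53, −0.51 and −0.61 at 5, 7 and 10 dai, where wild type had −1.0, −0.38 and 0.32. At 5 dai 130 were at least 2-fold lower with TONO and 15 higher, at 7 dai 84 and 0, and at 10 dai 154 and 47. Of all gene models tested 2.84% were lower and 2.1% higher at 5 dai, and 2.41% and 2.31% at 7 dai. The list's shares at 10 dai were 32.5% lower and 9.92% higher, against 5.88% and 8.43% of all tested. At 10 dai the test called 66 lower and 6 higher (13.9% and 1.27%, against 1.82% and 1.97% of all), and 25 and 22 lower without the apn1 MAFF303099 library of 5 or of 7 dai. Between 7 and 10 dai the list's median moved by 0.06 with MAFF303099 and −0.04 with TONO in apn1, and by 0.16 and 0.79 in wild type, whose libraries of 5 and 7 dai chose the list.

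**Figure D3:**
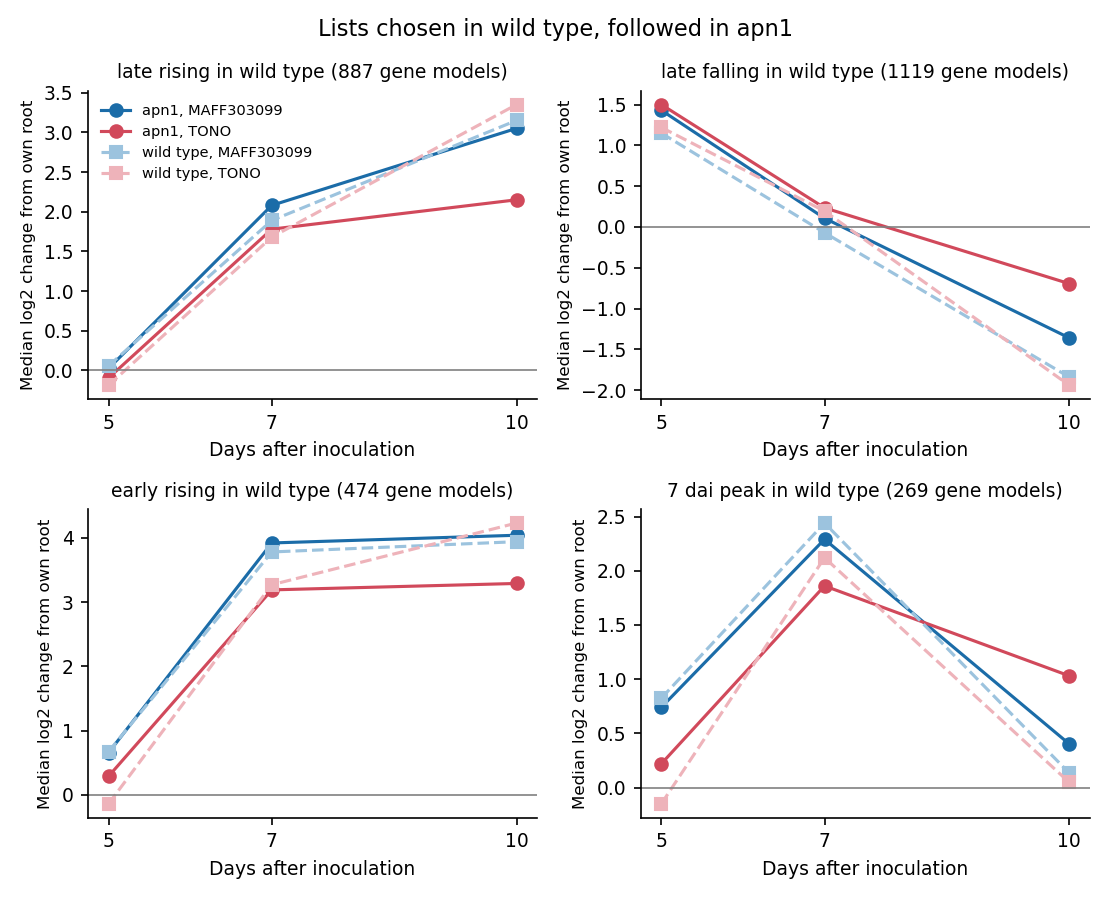
Median log2 change from the uninoculated root of the same genotype by days after inoculation, for 4 lists of gene models chosen from wild type libraries, in apn1 (solid lines) and wild type (dashed) with each strain. Up to 7 dai the apn1 lines lie near the wild type lines; at 10 dai apn1 with TONO is the lowest line for the late rising (2.15) and early rising (3.29) lists and the highest for the late falling (−0.70) and 7 dai peak (1.03) lists.

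The largest single differences at 10 dai came from gene models with few counts elsewhere. LjSGA_010878.1 had 11, 16 and 3 counts with MAFF303099 at 5, 7 and 10 dai and 7, 13 and 179 with TONO. The ratio at 10 dai was 61.7 in CPM with an exact 95% interval of 20.8 to 301.9 that covers counting error only, since 3 counts stand on the lower side (edgeR adjusted p = 0.0134). LjSGA_014379.2 had 3, 15 and 14 counts with MAFF303099 and 8, 11 and 694 with TONO (log2 difference 5.52, SE 0.94, edgeR adjusted p = 0.0257). Neither exceeded 34 counts in any wild type nodule library, nor 19 counts in the apn1 root. Both were thus at their highest of all nodule libraries in apn1 with TONO at 10 dai.

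Lower with TONO, LjT45L18.200.r2.d had 23, 55 and 281 counts with MAFF303099 and 58, 46 and 10 with TONO (log2 difference −4.91, SE 0.79, edgeR adjusted p = 0.0221). The wild type libraries of 10 dai had 295 and 249 counts. For chr1.CM0476.390.r2.a there were 5, 45 and 344 counts with MAFF303099 and 0, 5 and 15 with TONO (log2 difference −4.62, SE 0.58, edgeR adjusted p = 0.0123), against 345 and 308 in wild type at 10 dai. In both cases apn1 with TONO was the low library and the other 3 of that age were close to each other. The adjusted p of LjT45L18.200.r2.d was 0.0554 and 0.0545 without the apn1 MAFF303099 library of 5 or of 7 dai. The other 3 of these gene models passed under every alternative that gave them an adjusted p, and DESeq2 gave none for LjSGA_010878.1.

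**Figure D4:**
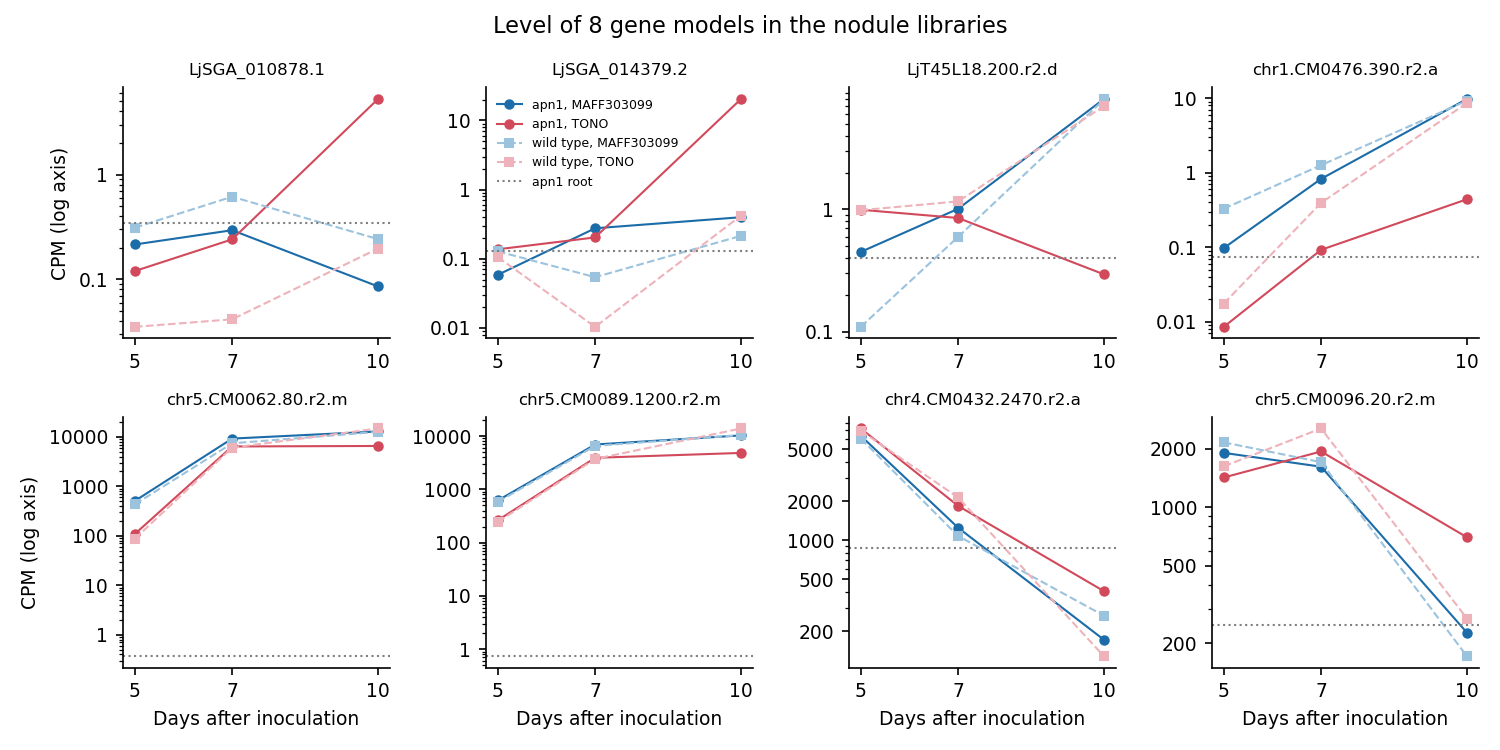
CPM (count over library total, log axis, a count of 0 drawn at 0.5 counts) by days after inoculation of the 4 gene models with the largest strain difference at 10 dai in apn1 (top row) and of the most abundant members of the late rising and late falling lists (bottom row), in all nodule libraries, with the apn1 root dotted. In the top row the apn1 TONO point of 10 dai lies away from the 3 other libraries of that age, above them in the first pair of panels and below them in the second pair.

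Gene models that were high in apn1 with TONO at 10 dai and in no other library formed a smaller set, counted after the data were seen. Of the 641 called higher, 183 were above each of the other 13 libraries, roots included, and 62 at least 2-fold above each (28.5% and 9.67%). Of all gene models tested 2630 and 184 were (8.08% and 0.565%), and the call itself selects for a high level in this library. None of these 62 was in the late falling list, which holds 1119 of the 32549 tested, and no conclusion can be drawn from this. That list was chosen for a high wild type level at 5 dai, and the 62 had to stand at least 2-fold above those libraries too. Among the 593 called lower, 61 were below each of the other 13 libraries and 7 at least 2-fold below each, against 1842 and 101 of all 32549 tested. The called gene models lay on all 6 chromosomes that the identifiers name, with 2.11% to 2.83% of the tested gene models of a chromosome called higher and 1.89% to 2.27% called lower, against 1.41% and 1.55% of the 14094 not placed on a chromosome.

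The strain difference itself changed with age. In a test of the difference at 10 dai against that at 5 and 7 dai, 558 gene models passed (1.71% of 32549), 278 shifted upwards with TONO and 280 downwards (0.854% and 0.86%; edgeR, adjusted p under 0.05). The lists took part unevenly. Of the 887 late rising gene models 91 shifted downwards and 2 upwards, and of the 1119 late falling 58 upwards and 0 downwards. Of the 269 of the 7 dai peak 27 shifted upwards and 0 downwards. The 474 early rising went both ways, with 10 upwards and 9 downwards. Of the lists described under other observations, the 471 nodule raised had 10 upwards and 12 downwards. The 368 nodule lowered had 3 and 0, and the 4400 root silent 21 and 7. In neither of these lists was the share above that of all gene models tested, given above. The count was 0 without the apn1 MAFF303099 library of 5 or of 7 dai, 173 and 101 without the TONO library of 5 or 7 dai, 353 and 369 without wild type with MAFF303099 at 5 or 7 dai, and 1007 and 994 without wild type with TONO at 5 or 7 dai. The counts of the lists were then 0 as well without the apn1 MAFF303099 library of 5 or 7 dai. The test uses the same 10 dai libraries as the comparison above and is no separate support for it.

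The gene models with the largest upward shift had 0 counts at 10 dai with MAFF303099. LjSGA_083414.1 had 78, 54 and 0 counts with MAFF303099 at 5, 7 and 10 dai and 41, 48 and 36 with TONO, at least 12.4-fold higher with TONO at 10 dai against a floor of 3 counts per library (edgeR adjusted p = 0.0385). LjSGA_029080.1 had 71, 57 and 0 counts with MAFF303099 and 90, 63 and 38 with TONO, at least 13.1-fold higher at 10 dai (edgeR adjusted p = 0.0495). With TONO both were still counted at 10 dai. LjSGA_083414.1 missed the threshold in 7 of 16 alternatives and LjSGA_029080.1 in 9 of 17. Both missed it without any 1 of the 4 apn1 libraries of 5 and 7 dai or of wild type with MAFF303099 at 5 or 7 dai (edgeR adjusted p 0.0535 to 0.186), and LjSGA_029080.1 also without wild type with TONO at 5 or 7 dai.

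The largest downward shifts came with a change of order between the strains. LjSGA_073117.0.2 had 14, 30 and 206 counts with MAFF303099 and 67, 71 and 11 with TONO (log2 difference between the ages −5.87, SE 0.68, edgeR adjusted p = 0.0155). LjSGA_104325.1 had 46, 10 and 219 counts with MAFF303099 and 199, 15 and 15 with TONO (log2 difference between the ages −5.46, SE 0.85, edgeR adjusted p = 0.0306). Each was higher with TONO at 5 and 7 dai and lower with TONO at 10 dai. Without the apn1 MAFF303099 library of 5 or 7 dai the adjusted p was 0.105 and 0.0701 for LjSGA_073117.0.2, and 0.176 and 0.110 for LjSGA_104325.1. It was 0.0506 for the first without apn1 with TONO at 7 dai and 0.0832 for the second without apn1 with TONO at 5 dai.

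In wild type nodules the test called 147 gene models at 5 and 7 dai (0.452%), 107 higher and 40 lower with TONO (0.329% and 0.123%), and 4 at 10 dai (0.0123%), 1 higher and 3 lower (0.00307% and 0.00922%). At 10 dai the fitted log2 strain differences had a standard deviation of 0.916 in wild type and 0.927 in apn1 across all gene models tested. The few wild type calls at 10 dai thus do not show that the strains were alike there, and no other tool was run for wild type. The 107 had a median difference of 1.24 in wild type and of 0.07 in apn1 at 5 and 7 dai. In apn1 62 of them were above 0 and 45 below, and 9 were at least 2-fold higher. The 40 had medians of −1.08 in wild type and −0.44 in apn1, with 33 below 0 and 7 above, and 5 at least 2-fold lower. Over all gene models tested the median fitted difference in apn1 at 5 and 7 dai was −0.000156. By day, 2.1% and 2.31% of all tested stood at least 2-fold higher in apn1 at 5 and 7 dai, and 2.84% and 2.41% lower. The wild type medians are of the values that chose these gene models, so they cannot be set evenly against the apn1 medians. The apn1 libraries of 5 and 7 dai helped set the spread of that test, and these medians are a description made after the data were seen.

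Whether the strain difference of young nodules was other in apn1 than in wild type was tested for each gene model, and 6 passed, all with a lower value in apn1 (0.0184% of 32549; edgeR, adjusted p under 0.05). The count was 0 without any of the 4 apn1 libraries of 5 and 7 dai, wild type with MAFF303099 at 7 dai or wild type with TONO at 5 or 7 dai, and 24 without wild type with MAFF303099 at 5 dai. At 5 and 7 dai chr4.CM0126.1710.r2.a had 1250 and 1605 counts with MAFF303099 and 830 and 943 with TONO in apn1. In wild type it had 489 and 373 with MAFF303099 and 2659 and 2099 with TONO (difference of the log2 differences −3.41, SE 0.26, edgeR adjusted p = 0.0202). The order of the strains was therefore opposite in the plant lines, with the apn1 values between those of wild type.

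The abundant chr4.LjT13G24.170.r2.a showed the same order. In apn1 it had 273690 and 285972 counts with MAFF303099 and 165158 and 142867 with TONO at 5 and 7 dai, and in wild type 112589 and 65468 against 440571 and 249128 (difference −3.09, SE 0.30, edgeR adjusted p = 0.0461). At 10 dai the apn1 libraries were closer, at 88693 and 108259 counts. The other 4 were chr4.CM0126.1700.r2.a, chr4.CM0126.1790.r2.a, chr5.LjT43D06.130.r2.d and LjSGA_079901.1, named because so few passed, with differences of −2.12, −2.48, −3.04 and −2.37. Of the 6, 3 carry the same contig name, CM0126, and neighbouring models may share reads. With edgeR 0 gene models passed in the other direction, and with DESeq2 10 did. The nearest with edgeR were chr2.CM0360.130.r2.d, with 291 and 285 counts with MAFF303099 and 398 and 318 with TONO in apn1 and 328 and 280 against 105 and 87 in wild type (difference 1.69, SE 0.25, edgeR adjusted p = 0.149), and chr2.LjB26H15.70.r2.m (difference 1.09, SE 0.17, edgeR adjusted p = 0.184). Both passed with DESeq2 (adjusted p = 0.0015 and 0.0053).

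At 10 dai the strain difference was higher in apn1 than in wild type for 237 gene models and lower for 315, 552 in all (1.7% of 32549; 0.728% and 0.968%; edgeR, adjusted p under 0.05). Over the 237 the median difference was 1.23 in apn1 and −0.92 in wild type, and over the 315 it was −1.34 and 0.59, values that chose these gene models and are given as a description. The count was 0 without the apn1 MAFF303099 library of 5 or of 7 dai, 248 and 278 without the apn1 TONO library of 5 or 7 dai, 355 without wild type with MAFF303099 at 5 dai, and 1036 and 1038 without wild type with TONO at 5 or 7 dai. Wild type with TONO at 10 dai was itself the library with the largest share of counts in its 10 most abundant gene models, 8.05%, against 4.93% in apn1 with TONO, and the part of this in the result was not tested.

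Of single gene models, chr3.CM0423.190.r2.m had 35 counts with MAFF303099 and 1194 with TONO at 10 dai in apn1, a 35.3-fold ratio in CPM, and 74 and 48 in wild type (difference 5.27, SE 0.57, edgeR adjusted p = 0.0232). It had 90 to 191 counts in the apn1 libraries of 5 and 7 dai and 412 in the apn1 root. For chr2.LjT13L03.30.r2.a the counts over 5, 7 and 10 dai were 3784, 669 and 17 with MAFF303099 and 5787, 787 and 197 with TONO in apn1, and the wild type had 59 and 8 counts at 10 dai (difference 5.96, SE 0.50, edgeR adjusted p = 0.0193). It dropped with age in all 4 combinations, and least far in apn1 with TONO. Without the apn1 MAFF303099 library of 5 or 7 dai the adjusted p of this test was 0.0711 to 0.0721 for this pair.

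In the lower direction chr1.CM0476.390.r2.a, described above, had a difference of −4.79 (SE 0.74, edgeR adjusted p = 0.0312). The gene model chr3.CM0282.630.r2.m had 40, 81 and 1628 counts with MAFF303099 and 50, 224 and 206 with TONO in apn1, and 1525 and 3179 counts in wild type at 10 dai (difference −4.48, SE 0.61, edgeR adjusted p = 0.0271). In apn1 with TONO it stood at 4.14 CPM at 7 dai and 6.06 CPM at 10 dai, against 46.3 CPM with MAFF303099 at 10 dai. Without the apn1 MAFF303099 library of 5 or 7 dai the adjusted p was 0.0811 and 0.0810 for chr1.CM0476.390.r2.a and 0.0763 and 0.0762 for chr3.CM0282.630.r2.m.

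**Figure D5:**
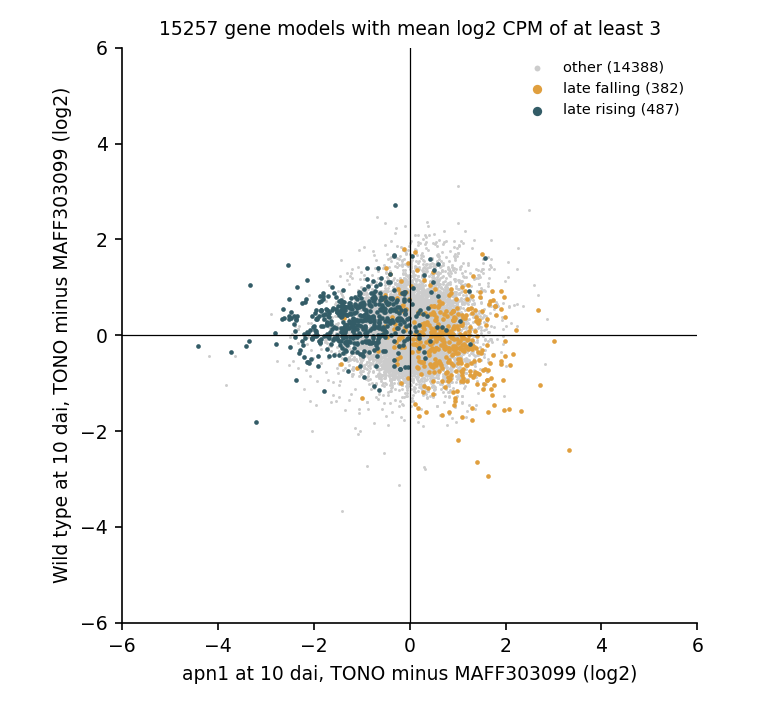
Log2 difference between TONO and MAFF303099 at 10 dai in apn1 (horizontal axis) and in wild type (vertical axis) for the 15257 gene models with a mean level of at least 3 log2 CPM, 1 library against 1 on each axis; members of the late rising list (487 shown) and of the late falling list (382 shown) are coloured. The late rising points lie mostly left of 0 and the late falling points mostly right of 0 on the apn1 axis, and the Pearson correlation between the axes across these gene models is 0.0312.

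The strain differences of both plant lines were also set side by side. Across the 15257 more abundant gene models those of apn1 and wild type, which share no library, had a Pearson correlation of 0.464 at 5 dai, 0.406 at 7 dai and 0.0312 at 10 dai, as a description across genes. At 5 dai 345 gene models were at least 2-fold lower with TONO in both plant lines, 37.4% of the apn1 list and 18.2% of the wild type list. At 10 dai 234 were, 12.2% and 10.2%. Higher with TONO by as much in both were 216 at 5 dai, 31.5% and 18.4% of the lists, and 351 at 10 dai, 12.8% and 20.5%. Of all gene models tested, wild type had 3.6% higher and 5.82% lower at 5 dai and 5.26% and 7.08% at 10 dai. At 10 dai 451 of the 2745 higher in apn1 were lower in wild type, and 155 of the 1914 lower were higher there.

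Averaged over the 3 days, edgeR passed 0 gene models between the strains in apn1 (0% of 32549), with 1748 at an unadjusted p under 0.05, while DESeq2 passed 50 and limma 0. The gene models with the smallest p are given as values. The gene model chr2.CM0608.560.r2.m had 230, 199 and 65 counts with MAFF303099 and 2148, 1048 and 1198 with TONO at 5, 7 and 10 dai, against 12805 in the apn1 root. It was 8.19-fold, 5.30-fold and 19.0-fold higher with TONO in CPM (log2 difference 3.05, SE 0.41, edgeR adjusted p = 0.379). In wild type it had 238, 81 and 157 counts with MAFF303099 and 313, 344 and 240 with TONO. For chr1.CM0178.420.r2.m the counts were 68, 64 and 28 with MAFF303099 and 190, 167 and 127 with TONO (log2 difference 1.53, SE 0.25, edgeR adjusted p = 0.561). Both were most abundant in the root, and their levels with TONO were nearer to it on all 3 days.

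Lower with TONO on all 3 days, LjSGA_133081.1 had 690, 1240 and 1153 counts with MAFF303099 and 501, 658 and 654 with TONO (log2 difference −0.85, SE 0.11, edgeR adjusted p = 0.379). For chr1.CM0088.420.r2.d there were 10, 50 and 76 counts with MAFF303099 and 0, 1 and 5 with TONO, and 0 in the apn1 root (edgeR adjusted p = 0.561). Without the apn1 TONO library of 10 dai edgeR passed 1 gene model.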

How the data were processed

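RNA was measured in 14 libraries of Lotus japonicus, 1 per condition, made from ribosome-depleted total RNA with a ScriptSeq kit, per the labels' protocols. The authors deposited 12 tables, each with 1 nodule library and the root of the same genotype. Per the file headers these hold the original read count of each gene model and a normalized signal, the count over 1 size factor per library set within that pair. Only the deposited counts were used in tests. Bowtie2 2.0.2 and DESeq are named in the submitters' processing notes; for the build, annotation, counter and strand setting the sources used here give nothing. Titles spell the mutant anp1, and the design's apn1 is used.

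Gene models with a mean scaled count of at least 10 in the 12 nodule libraries were tested with edgeR 4.0.16 (quasi-likelihood, TMM, R 4.3.3). The model had 4 genotype-strain combinations at 5 and 7 dai, a common 7 against 5 dai effect, and the 4 combinations at 10 dai, which leaves 3 residual degrees of freedom, all from 5 and 7 dai. The average over days came from an additive model with 6. The biological coefficient of variation was 17% and 22.7%. Standard errors are the log2 difference over the square root of F. Levels are log2 CPM with a prior count of 2. Alternatives used limma 3.58.1 and DESeq2 1.42.0, and the models were tested on simulated counts. Of changes simulated at 10 dai, the 10 dai test found 6% of 2-fold and 59% of 4-fold ones. The test of the change between ages found 2% and 47% of them. Of changes simulated at 5 and 7 dai, the test of those ages found 41% and 78%, and it called 18 unchanged gene models. Most 2-fold changes at 10 dai were thus missed. Pairing by day is part of the models.

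A count of 0 allows up to 3 counts, 0.0514 to 0.0883 CPM per library; intervals and floors cover counting error only. None of the 38476 identifiers matched the RefSeq table (LjGifu_v1.2), so 0 of 9 symbol lists could be used, and no sequence is shown. Named were the 2 gene models with the largest difference in each direction per contrast among those that passed, with at least 100 counts in the apn1 libraries of the higher strain over the contrast's ages and, over more than 1 day, the same direction on each; remaining places went to the smallest p. The 2 most abundant members of a wild type list were named too. Others were named after their values were seen. The comparison, lists and tests were chosen with earlier results of these data known.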

Additional observations from a re-analysis of the deposited data

Results flagged for a closer look

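The results below were singled out because the strain difference in apn1 was itself tested against that of another age or of wild type, and the test passed. They are given as values, and no explanation was tested.

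Between 10 dai and the younger nodules of apn1 the strain difference changed for 558 gene models. Among those named, the edgeR adjusted p of that change was 0.0385 for LjSGA_083414.1, 0.0495 for LjSGA_029080.1, 0.0155 for LjSGA_073117.0.2 and 0.0306 for LjSGA_104325.1. In wild type the same test passed 0 gene models with edgeR, with 3942 at an unadjusted p under 0.05, and no other tool was run for it.

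Between apn1 and wild type at 5 and 7 dai the strain difference was different for 6 gene models, with edgeR adjusted p of 0.0202 for chr4.CM0126.1710.r2.a and 0.0461 for chr4.LjT13G24.170.r2.a. At 10 dai it was different for 552, with edgeR adjusted p of 0.0193 for chr2.LjT13L03.30.r2.a, 0.0232 for chr3.CM0423.190.r2.m, 0.0312 for chr1.CM0476.390.r2.a and 0.0271 for chr3.CM0282.630.r2.m. Each rests on single libraries at 10 dai.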

How the results depend on the processing

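The 10 dai comparison kept its direction for every gene model called under all settings run. This is no support, since both apn1 libraries of 10 dai alone set the difference in nearly all of them. Only an additive model with 1 further term also drew on other days for it, and neither of these libraries could be left out. The count lay between 1241 and 1760 with other scaling, filters, limma or that additive model. It was 2157 with DESeq2 and 2072 with the apn1 libraries alone. At 5 and 7 dai 1 passed without a filter, 159 with DESeq2 and 11 with apn1 alone. The change between ages passed 1398 with DESeq2, 1181 with apn1 alone and 1370 with the further term. Over all days DESeq2 passed 50. Against wild type 16 passed at 5 and 7 dai without a filter, 2 at a mean count of at least 50 and 95 with DESeq2; at 10 dai 1626 passed with DESeq2, 1125 with limma and 1725 with the further term, where 2 called gene models had the other sign. With 1 library left out the counts were 0 to 1 at 5 and 7 dai, 272 to 1829 at 10 dai, 0 to 1007 for the change between ages, 0 to 1 over all days, and 0 to 24 and 0 to 1038 against wild type at 5 and 7 dai and at 10 dai. The cause of these shifts was not tested.

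At 4-fold in place of 2-fold 150, 147 and 890 gene models were apart at 5, 7 and 10 dai, and at a mean count of at least 50 they were 758, 591 and 2957. With lists made at 2-fold the medians at 10 dai were −0.597 for late rising, −0.231 for early rising, −0.148 for nodule raised and 0.281 for nodule lowered. Day is a term of all models, so strains are compared within days, and no fit without that term was run. At 10 dai the totals, 33981124 to 37261815 counts, were the lowest of all ages, which limits gene models with few counts.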

Other observations

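The nodule raised list, 471 gene models at least 4-fold above the root in all 6 wild type nodule libraries, held 3.85%, 9.75% and 9.76% of the counts in apn1 with MAFF303099 at 5, 7 and 10 dai and 2.99%, 7.53% and 5.77% with TONO. Its median strain difference in apn1 was −0.32, −0.23 and −0.31, and at 10 dai edgeR called 47 lower and 14 higher with TONO (9.98% and 2.97%, against 1.82% and 1.97% of all tested). These counts were 13 and 5 without the apn1 MAFF303099 library of 5 or of 7 dai, and 81 and 24 without wild type with TONO at 5 or 7 dai. The share of counts thus went down from 7 to 10 dai with TONO, while the median difference was about as large at 5 dai as at 10 dai.

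The nodule lowered list, 368 gene models at least 4-fold below the root in all 6 wild type nodule libraries, held 0.361%, 0.290% and 0.250% of the counts with MAFF303099 and 0.450%, 0.357% and 0.432% with TONO in apn1, against 2.67% in the apn1 root. At 10 dai its median strain difference was 0.50, and edgeR called 26 higher and 0 lower (7.07% and 0%, against 1.97% and 1.82% of all tested), DESeq2 37 and 2 and limma 39 and 1. Without the apn1 MAFF303099 library of 5 or of 7 dai edgeR called 5 higher. Its most abundant members did not pass: chr2.CM0021.1610.r2.d had 3742 counts with MAFF303099 and 8785 with TONO at 10 dai (edgeR adjusted p = 0.164), and chr1.CM0105.1500.r2.m had 3334 and 4383 (edgeR adjusted p = 0.660). The 4400 root silent gene models, under 1 CPM in both roots, were 13.5% of those tested but 5.62% of the calls higher and 7.08% of the calls lower with TONO at 10 dai. Counted without a test, 20% of them stood at least 2-fold higher and 14.8% lower in apn1 at 10 dai, against 8.43% and 5.88% of all tested. Their median level was then −0.87 log2 CPM with MAFF303099 and −0.74 with TONO, so most had few counts. Their small share of the calls therefore does not tell how large their differences were, which was not tested.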
